A study of Mus musculus with 6 samples.

Results

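The members described here were the spliceosome and heterogeneous nuclear ribonucleoprotein (hnRNP) genes of the mouse. They were all probes of the deposited raw signal table whose platform gene symbol began with Hnrnp, Srsf, Snrp, Sf3a, Sf3b, Rbfox, Ptbp or Mbnl, which gave 137 probes of 57 genes among 46632 probes of 17711 named genes. The Hnrnp family had 53 probes of 19 genes, the Srsf family 20 probes of 9 genes, the Snrp family 18 probes of 12 genes, the Sf3a and Sf3b subunits 15 probes of 8 genes, Ptbp 15 probes of 3 genes, Rbfox 9 probes of 3 genes and Mbnl 7 probes of 3 genes. The rule used symbols only and no measured value.

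The study compared prospective lens tissue of Pax6-/- and wild-type (WT) mouse embryos, taken at E10.25 of embryonic development, with Illumina bead arrays. The 3 Pax6-/- samples were labelled as surface ectoderm and the 3 WT samples as lens placode, the thickened patch of head ectoderm that forms the lens. Every embryo was on a mixed FVB and 129 background. Tissue was cut by laser microdissection from 10 micron sections, and both prospective lens areas of 1 embryo went onto 1 array after amplification of 15 ng of total RNA. The labels do not describe the Pax6 allele. The question behind the comparison is how gene expression in this tissue differs when Pax6, a paired-box transcription factor needed for eye development, is missing. Embryos were the replicates, n = 3 per genotype. Laser-cut tissue is a mixture, so fewer cells of a type and less RNA per cell cannot be told apart.

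Splicing removes introns from precursor RNA. Small nuclear ribonucleoproteins, whose proteins are encoded by Snrp and Sf3 genes, recognise the splice sites and the branch point and carry out the reaction. SR proteins, the Srsf genes, mostly bind exons and help define them, whereas hnRNP proteins coat the nascent RNA and often repress exons. Ptbp, Mbnl and Rbfox proteins bind short RNA motifs near particular exons and set tissue-specific isoforms, best known from neurons and muscle.

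Pax6 itself was read by 3 probes, and on each of them every Pax6-/- array lay below every WT array. On the probe with the largest gap the levels were 9.21, 8.84 and 9.67 in Pax6-/- tissue, against 10.13, 10.10 and 10.47 in WT tissue. Levels here and below are normalised log2 intensities, so that 1 unit is a doubling. The 3 probes differed by -0.53, -0.996 and -0.83 (limma adjusted p of 0.638, 0.380 and 0.376), so Pax6 signal remained in the mutant tissue and none passed the adjusted threshold of 0.05. All 9 of the 9 lens placode markers were lower on every Pax6-/- array than on every WT array, with a summed linear intensity of 1555 to 1969 in Pax6-/- tissue and 7350 to 8665 in WT tissue. This list includes Pax6 itself, so the count and the sums contain the targeted gene. Its probe there had 9.79, 9.93 and 10.11 in Pax6-/- tissue, against 10.52, 10.17 and 10.71 in WT tissue. Foxe3, Maf and Pitx3 were above background on no Pax6-/- array. Surface ectoderm markers summed to 5252 to 6902 in Pax6-/- tissue and 4149 to 4978 in WT tissue, but their mean log2 levels overlapped (8.59 to 9.16 in Pax6-/- tissue and 8.27 to 8.67 in WT tissue). Of these 9 markers, 2 were higher on every Pax6-/- array (Tfap2b and Grhl3) and 1 was lower (Epcam). Red blood cell markers summed to 3694 to 5601 in Pax6-/- tissue and 362 to 3037 in WT tissue, and optic cup and neuroectoderm markers to 836 to 1730 in Pax6-/- tissue and 268 to 562 in WT tissue. Endothelial markers summed to 487 to 662 in Pax6-/- tissue and 213 to 270 in WT tissue, neuronal markers to 290 to 350 in Pax6-/- tissue and 220 to 284 in WT tissue. Mesenchyme markers summed to 660 to 1549 in Pax6-/- tissue and 1460 to 2015 in WT tissue, with overlap. Of these 10 markers, 1 was lower on every Pax6-/- array (Pdgfra, at 5.11, 7.93 and 6.66 in Pax6-/- tissue, against 10.17, 10.40 and 10.58 in WT tissue) and 2 were higher (Twist2 and Prrx2). Macrophage markers summed to 39.7 to 105 in Pax6-/- tissue and 44.1 to 71.7 in WT tissue, which overlapped. Of the 6 red cell markers on the array, 4 were higher on every Pax6-/- array. The neuronal markers Stmn2 and Dcx were above background on no array. The part of these tissues in the results was not tested.

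The promoters of 4 members are shown because the report turns on their values: Srsf11 and Hnrnph2, the only members past an unadjusted p of 0.05, and Hnrnpa2b1 and Ptbp1, whose probes differed most from each other. Members past that unadjusted limma p were 3.85%, below the 8.99% of all genes, and 0 members passed an adjusted 0.05. Each run holds 250 bases before and 50 after an annotated start, read 5′ to 3′ on the gene's strand, from RefSeq on build GRCm38.p6. Capitals mark CCAAT as well as CCGGAAG and also AAGATGGC on either strand, and TATAAA occurs in none of the 4. The genes with several starts are shown at 1 of them.
Srsf11, chr3:158031699-158031998, minus strand: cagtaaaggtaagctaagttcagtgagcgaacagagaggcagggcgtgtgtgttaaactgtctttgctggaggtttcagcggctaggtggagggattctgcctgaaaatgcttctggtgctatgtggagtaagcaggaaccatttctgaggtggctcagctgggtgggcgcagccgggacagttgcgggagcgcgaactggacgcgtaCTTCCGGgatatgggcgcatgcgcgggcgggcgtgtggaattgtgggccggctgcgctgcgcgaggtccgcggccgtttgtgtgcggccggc
Hnrnph2, chrX:134600929-134601228, plus strand: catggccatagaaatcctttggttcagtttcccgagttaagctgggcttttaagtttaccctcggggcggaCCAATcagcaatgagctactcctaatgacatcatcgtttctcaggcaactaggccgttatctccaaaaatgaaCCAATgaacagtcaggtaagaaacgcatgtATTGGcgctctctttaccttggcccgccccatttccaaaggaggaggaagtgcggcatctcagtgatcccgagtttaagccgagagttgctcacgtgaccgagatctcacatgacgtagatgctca
Ptbp1, chr10:79854182-79854481, plus strand: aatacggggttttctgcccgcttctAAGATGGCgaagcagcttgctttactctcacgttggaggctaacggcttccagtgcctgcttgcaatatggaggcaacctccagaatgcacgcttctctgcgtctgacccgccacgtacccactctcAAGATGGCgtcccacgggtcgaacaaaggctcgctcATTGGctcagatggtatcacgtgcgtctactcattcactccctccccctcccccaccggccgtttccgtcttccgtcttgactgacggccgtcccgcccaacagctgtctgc
Hnrnpa2b1, chr6:51469796-51470095, minus strand: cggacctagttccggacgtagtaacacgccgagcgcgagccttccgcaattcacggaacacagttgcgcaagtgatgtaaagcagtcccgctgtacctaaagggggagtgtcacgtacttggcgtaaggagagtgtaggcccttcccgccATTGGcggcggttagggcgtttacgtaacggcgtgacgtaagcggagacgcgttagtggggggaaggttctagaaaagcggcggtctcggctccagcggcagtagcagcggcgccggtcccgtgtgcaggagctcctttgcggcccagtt

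Promoter sequence was matched for 50 of the 57 genes, in 67 windows of 300 bases. The median window held 24 CpG dinucleotides in members, 20 in the 9510 windows of the genes tested and 7 in all 32851 mouse windows. CCAAT, on either strand, was found in 47.8% of member windows, 37.9% of windows of genes tested and 37.4% of all windows. CCGGAAG, the core recognised by Ets-family factors, was found in 26.9%, 17.3% and 8.86% in the same order. AAGATGGC was found in 4.48%, 4.49% and 2.75%, and TATAAA in 11.9%, 8.03% and 13.6%. No searched motif lies within another, but CCGGAAG and AAGATGGC share the letters AAG and can overlap there. The Hnrnph2 window held CCAAT 3 times, and that of Ptbp1 held AAGATGGC at 225 and 98 bases before the start. These matches are letters in a window and no binding was measured.

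Splicing genes were read broadly in both genotypes. Of the 137 member probes, 96 (70.1%) were above background on all 6 arrays, and 10 were above background on none. The share above background on all 6 arrays was 23.0% over all 46632 probes, but 16646 of those carry no gene symbol, whereas every member probe does. All 19 Hnrnp genes and all 3 members each of Ptbp and Mbnl passed the filter on dim probes, which required detection (p under 0.05) on 3 or more of 6 arrays. In the Srsf, Snrp, Sf3 and Rbfox families 8 of 9, 10 of 12, 7 of 8 and 2 of 3 genes passed. The 52 genes that passed were tested among 13805 genes or unnamed probes. The 5 that did not were Rbfox1, a neuronal and muscle splicing factor, Sf3a2, Snrpc, the U1-specific C protein, Snrpg, a subunit of the Sm ring, and Srsf12. Their probes were above background on at most 1 array, which bounds what these probes can show and says nothing of the genes' use in the tissue. For the probe standing for each gene, that with the highest mean, the median level over the members was 9.47 in Pax6-/- tissue and 9.56 in WT tissue.

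No splicing factor gene differed between the genotypes at an adjusted p under 0.05. The comparison asked, for each of the 52 genes, for the Pax6-/- minus WT difference in log2 intensity. With limma the smallest adjusted p among members was 0.408, and 0 of 52 passed, while 12 of all 13805 genes, or 0.0869%, did. At an unadjusted limma p under 0.05, 1 member was higher in Pax6-/- tissue (Srsf11) and 1 was lower (Hnrnph2), together 3.85% of members against 8.99% of all genes. The corresponding shares of all genes were 4.27% higher and 4.72% lower. The median change of the 52 genes was -0.01 and that of all genes 0.07. There were 25 positive and 27 negative changes, and 48 of 52 (92.3%) were within 1 log2 unit, against 84.3% of all genes. The 95% interval lay wholly within 1 log2 unit of 0 for 22 members, so a 2-fold change lay outside the interval of these and inside that of the other members in at least 1 direction. The median standard error was 0.30 log2 units in members and 0.43 in all genes.

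**Figure D1:**
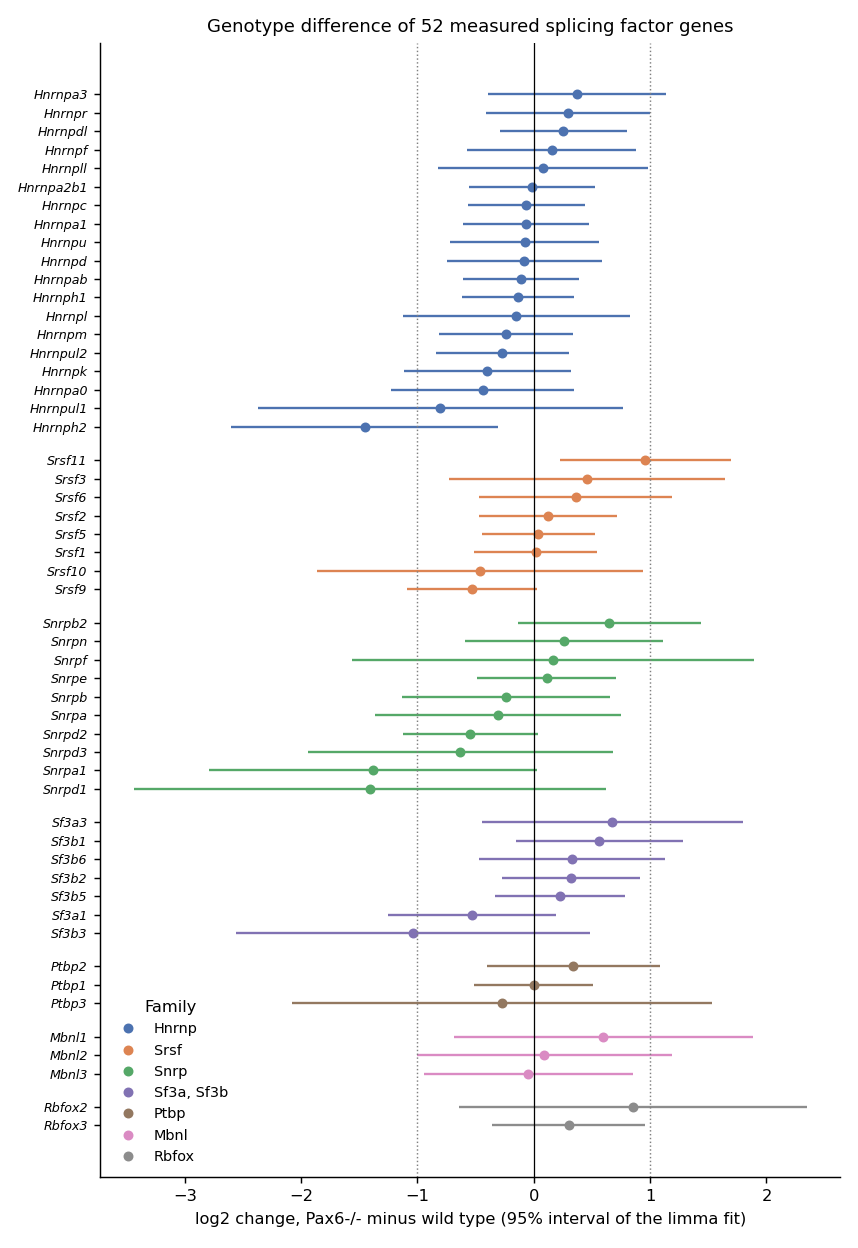
Log2 change (Pax6-/- minus wild type, horizontal axis) of the 52 member genes measured, grouped and coloured by family; points are limma estimates and lines their 95% intervals, n = 3 arrays per genotype. The intervals of Srsf11, on the higher side, and Hnrnph2, on the lower side, are the only ones that leave out 0, and dotted lines mark a change of 1 log2 unit.

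Before single genes, 1 array needs to be described. WT replicate 3 sat with the Pax6-/- arrays in the members' values. The median absolute difference of the 52 genes between WT replicate 3 and the Pax6-/- arrays was 0.27, 0.16 and 0.29 log2 units, whereas it was 0.41 and 0.47 between WT replicate 3 and WT replicates 1 and 2, which differed from each other by 0.28. Measured with each array left out of its own mean, 33 of the 52 members (63.5%) were nearer to the Pax6-/- mean than to the other WT arrays on WT replicate 3, and 36.5% to 48.1% of members were nearer to the other genotype on the other 5 arrays. The same count over all genes was 58.7% for WT replicate 3 and 43.2% to 48.5% for the other 5 arrays, so the pattern was not limited to splicing genes. The median absolute difference over all genes was 0.43, 0.46 and 0.47 to the Pax6-/- arrays and 0.50 and 0.55 to the WT arrays. By correlation over all genes, however, WT replicate 3 was nearest to WT replicate 1 (0.839) and furthest from WT replicate 2 (0.786). Its correlations with the Pax6-/- arrays were 0.835, 0.815 and 0.807. Its Pax6 and its lens markers were at the levels of the other WT arrays, and its label was kept. The median raw intensity of the member probes was 289, 277 and 269 in Pax6-/- tissue and 489, 346 and 251 in WT tissue, so WT replicate 3 was the dimmest of the 6 in these probes; whether dimness bears on its position was not tested. Without it the genotypes did not overlap for 27 of 52 members (51.9%, against 33.7% of all genes) and 5 of 52 (9.62%, against 11.2% of all genes) had an unadjusted limma p under 0.05. With it 6 of 52 members (11.5%) did not overlap, against 15.3% of all genes. WT replicate 3 was singled out by the values of these same members. Counts and changes without it, here and below, therefore follow in part from that choice and are no test of genotype. Fewer arrays separate more often by construction: leaving out Pax6-/- replicate 1, 2 or 3 gave 15, 13 and 13 members, against 26.8%, 24.1% and 24.0% of all genes, and leaving out WT replicate 1 or 2 gave 6 and 8 members, against 23.0% and 23.7%.

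**Figure D2:**
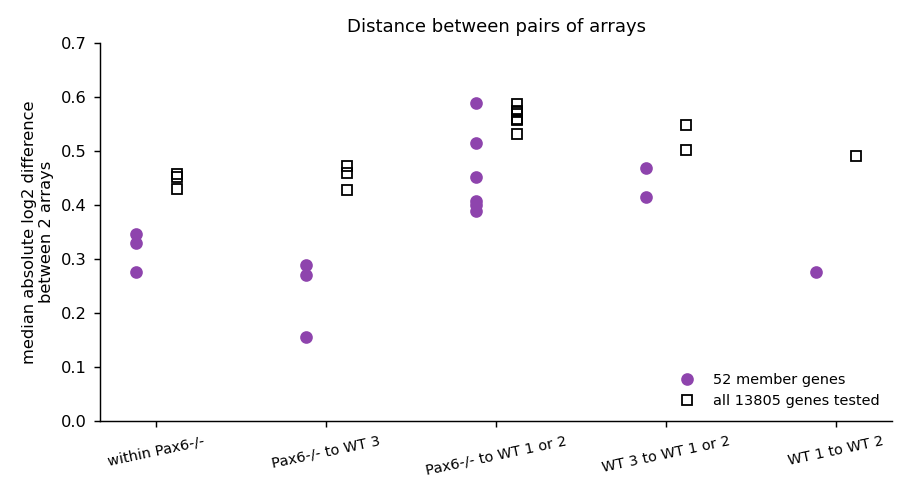
Median absolute log2 difference between 2 arrays (vertical axis) for every pair of the 6 arrays, for the 52 member genes (filled circles) and all 13805 genes tested (open squares), by kind of pair. WT replicate 3 lay 0.16 to 0.29 from the Pax6-/- arrays in the members and 0.41 and 0.47 from the other WT arrays.

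Of the 6 members whose genotypes did not overlap, 2 were higher on every Pax6-/- array (Srsf11 and Snrpb2; 8.52% of all genes were) and 4 were lower on every Pax6-/- array (Hnrnph2, Srsf9, Snrpd2 and Hnrnph1; 6.81% of all genes were). With 3 arrays per genotype an exact permutation test cannot give a p below 0.1.

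Among the SR proteins, the 8 measured Srsf genes had a median change of 0.08, with 6 positive and 2 negative values. Srsf11, an arginine and serine-rich protein known to act with U2AF at the 3′ splice site, had levels of 8.73, 7.81 and 7.996 in Pax6-/- tissue, against 7.20, 7.26 and 7.20 in WT tissue. All 3 mutant arrays lay above the narrow WT range, and the first of them stood apart from the other two. The difference was 0.96 ± 0.30 (SE; 1.95-fold; limma adjusted p = 0.408). Of its other kept probes, 1 had a change of the opposite sign (-0.92 ± 0.49) and 1 of the same sign (0.35 ± 0.38), and the mean over its 3 probes differed by 0.13 and was not past an unadjusted 0.05. Srsf9, a small SR protein, had 9.97, 10.40 and 10.29 in Pax6-/- tissue, against 10.81, 10.83 and 10.63 in WT tissue. Each mutant array was below each WT array, with a difference of -0.53 ± 0.23 (1.45-fold lower; limma adjusted p = 0.581). Srsf1, the best studied SR protein, had 11.36, 11.69 and 11.50 in Pax6-/- tissue, against 11.56, 11.56 and 11.38 in WT tissue, and its difference of 0.02 had a 95% interval from -0.51 to 0.55. Srsf5 differed by 0.04 ± 0.20 and Srsf2 by 0.12 ± 0.24. Srsf3, which also serves messenger RNA export, differed by 0.46 ± 0.48 and Srsf6 by 0.36 ± 0.34, both with overlapping genotypes. Srsf10, a splicing repressor when dephosphorylated, differed by -0.46 ± 0.57 on its brightest probe.

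The 19 Hnrnp genes had a median change of -0.08, with 5 positive and 14 negative values, and 17 were within 0.5 log2 units. Hnrnph2, an X-linked binder of G-rich RNA and a close paralogue of Hnrnph1, had 8.05, 6.68 and 6.64 in Pax6-/- tissue, against 8.80, 8.81 and 8.12 in WT tissue. The genotypes did not overlap, although the first mutant array came within 0.1 of WT replicate 3. The difference was -1.45 ± 0.47 (2.74-fold lower; limma adjusted p = 0.425). It rested on 1 probe, and it no longer passed an unadjusted 0.05 when Pax6-/- replicate 2 or 3 or WT replicate 1 or 2 was left out. Hnrnph1 itself had 12.17, 12.15 and 12.16 in Pax6-/- tissue, against 12.31, 12.26 and 12.31 in WT tissue, a tight separation by -0.14 ± 0.19 with a limma adjusted p of 0.869. All 5 of its probes had a negative change, between -0.62 and -0.12.

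The classical core particle proteins differed little on their brightest probes. Hnrnpa1, a repressor of exons with many targets, differed by -0.07 ± 0.22. Hnrnpc, which binds uridine tracts in introns, differed by -0.06 ± 0.21, and Hnrnpa2b1 by -0.02 ± 0.22. Hnrnpk, a binder of C-rich sequence, had 10.95, 10.66 and 10.26 in Pax6-/- tissue, against 11.18, 11.21 and 10.67 in WT tissue (-0.40 ± 0.29). Hnrnpa0 had 9.96, 9.53 and 9.33 in Pax6-/- tissue, against 10.32, 10.26 and 9.54 in WT tissue (-0.44 ± 0.32). In both genes the genotypes overlapped, and they did so through WT replicate 3, without which the differences were -0.57 and -0.69. Of the 5 kept probes of Hnrnpk, 2 had negative changes and 3 had positive ones, of up to 0.84, while Hnrnpa0 had 1 kept probe. Hnrnpu, a nuclear scaffold protein, differed by -0.08 ± 0.26, Hnrnpm by -0.24 ± 0.23 and Hnrnpul2 by -0.27 ± 0.23. Hnrnpul1 varied widely within both genotypes, with 6.75, 8.47 and 7.12 in Pax6-/- tissue, against 7.44, 9.23 and 8.07 in WT tissue. On the positive side Hnrnpa3 differed by 0.37 ± 0.31, Hnrnpr by 0.29 ± 0.29 and Hnrnpdl by 0.25 ± 0.22. Hnrnpab was at -0.11 ± 0.20, Hnrnpd, a binder of AU-rich messages, at -0.08 ± 0.27, Hnrnpl, a binder of CA repeats, at -0.15 ± 0.40, and Hnrnpf at 0.15 ± 0.29. The kept probes of Hnrnpab ran from -0.11 to 1.68, those of Hnrnpd from -0.39 to 0.55 and those of Hnrnpl from -0.15 to 0.60. Hnrnpll, known for the exon choice of Cd45 in T cells, differed by 0.08 ± 0.37.

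**Figure D3:**
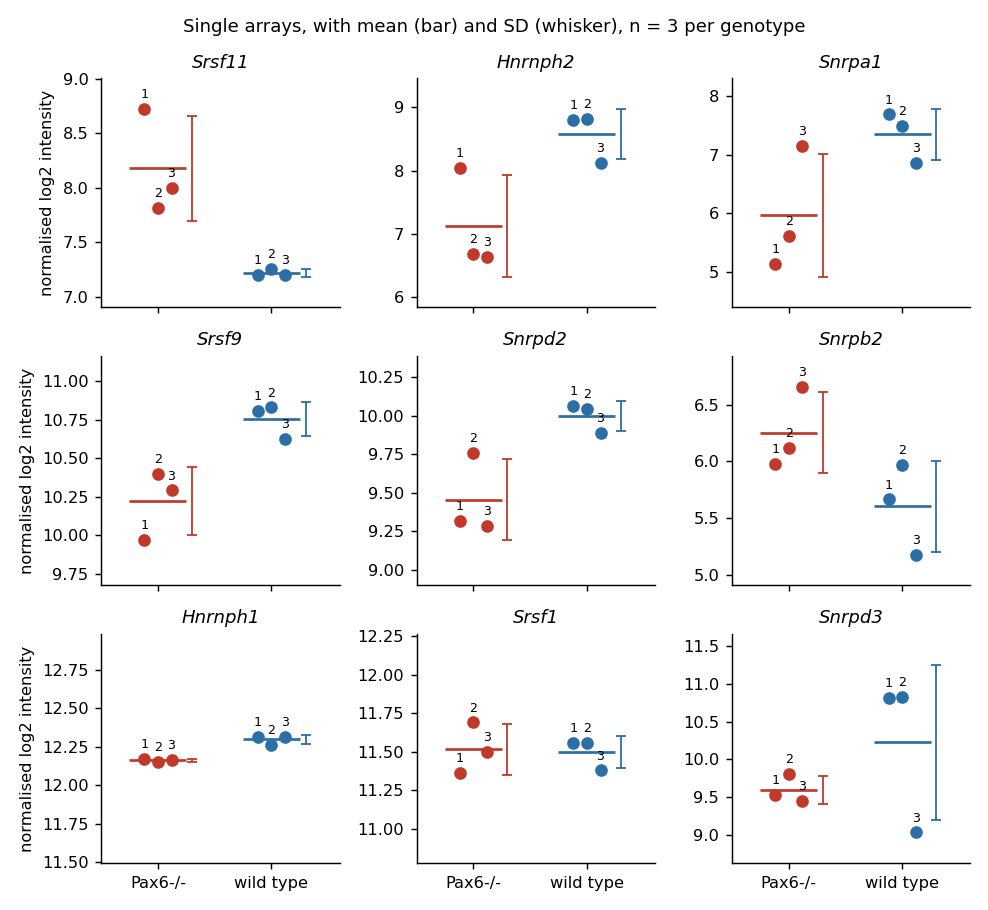
Normalised log2 intensity (vertical axes, each with its own range) of 9 member genes on single arrays, numbered by replicate, with Pax6-/- left of wild type; bars are means and whiskers SD, n = 3. The top and middle rows and Hnrnph1 hold the genes with the smallest p or separated genotypes, Srsf1 is a gene with a change near 0, and Snrpd3 shows WT replicate 3 at 9.03 below the other WT arrays at 10.81 and 10.82.

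The snRNP proteins held the widest spread. The 10 measured Snrp genes had a median change of -0.27, with 4 positive and 6 negative values, and without WT replicate 3 that median was -0.59. Proteins B, D1, D2, D3, E, F and G form the Sm ring around the small nuclear RNAs. Snrpd3 had 9.53, 9.81 and 9.44 in Pax6-/- tissue, against 10.81, 10.82 and 9.03 in WT tissue. WT replicate 3 was lower than all 3 mutant arrays, and the other WT arrays were higher than all of them. The difference was -0.63 ± 0.53 (limma adjusted p = 0.793) on all arrays and -1.23 ± 0.24 without WT replicate 3 (limma adjusted p = 0.218).

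In 3 other ring members WT replicate 3 was also more than 1 log2 unit below the mean of the other WT arrays. Snrpd1 had 5.16, 5.55 and 6.96 in Pax6-/- tissue, against 8.26, 7.95 and 5.68 in WT tissue. Its difference was -1.41 ± 0.83 (limma adjusted p = 0.716) on all arrays and -2.21 without WT replicate 3. Snrpf had 8.42, 9.20 and 8.79 in Pax6-/- tissue, against 9.47, 9.39 and 7.06 in WT tissue, a difference of 0.17 ± 0.70 with WT replicate 3 and of -0.62 without it. Snrpb had 10.83, 11.17 and 10.78 in Pax6-/- tissue, against 11.33, 11.68 and 10.49 in WT tissue, with -0.24 ± 0.36 and -0.58 in the same order. The other kept probe of Snrpb, above background on all 6 arrays, had a change of the opposite sign (0.35 ± 0.41 on all arrays). In these 4 genes WT replicate 3 minus the mean of the other WT arrays ran from -2.42 (Snrpd1) to -1.02 (Snrpb) log2 units. For Snrpd2 that gap was smaller, at -0.17, with 9.32, 9.76 and 9.28 in Pax6-/- tissue, against 10.07, 10.05 and 9.89 in WT tissue. Its 3 WT arrays lay close together and above every mutant array, and the difference was -0.55 ± 0.24 (1.46-fold lower; limma adjusted p = 0.587). Snrpe differed by 0.11 ± 0.24.

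Among the proteins specific to 1 particle, Snrpa1, the A′ protein of the U2 particle, had 5.13, 5.61 and 7.15 in Pax6-/- tissue, against 7.69, 7.50 and 6.86 in WT tissue. The third mutant array lay inside the WT range, and 2 of the 3 mutant arrays were above background. The difference was -1.39 ± 0.58 (limma adjusted p = 0.567). Its partner Snrpb2, the B″ protein of the same particle, ran the other way, with 5.98, 6.12 and 6.66 in Pax6-/- tissue, against 5.66, 5.97 and 5.18 in WT tissue. The genotypes were separated by a narrow gap, and the difference was 0.65 ± 0.32 (limma adjusted p = 0.644). Snrpa, the A protein of the U1 particle, differed by -0.31 ± 0.43 on its brightest probe. The other kept probes of Snrpa differed by -0.27 ± 0.42 and 0.83 ± 0.40. Snrpn, an imprinted Sm protein gene known from neurons, had 9.40, 9.78 and 9.15 in Pax6-/- tissue, against 8.78, 9.01 and 9.76 in WT tissue. Its genotypes overlapped and its difference was 0.26 ± 0.35.

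The Sf3 subunits belong to the U2 particle and grip the branch point. The 7 measured genes had a median change of 0.32, with 5 positive and 2 negative values, and 0 of 7 had separated genotypes. Sf3b1, the scaffold of the complex, had 6.73, 6.55 and 6.66 in Pax6-/- tissue, against 5.91, 5.74 and 6.59 in WT tissue. WT replicate 3 lay among the mutant arrays. The difference was 0.56 ± 0.29 (limma adjusted p = 0.663) on all arrays and 0.82 without WT replicate 3. Sf3b2 had 10.67, 10.58 and 10.59 in Pax6-/- tissue, against 10.08, 10.17 and 10.64 in WT tissue (0.32 ± 0.24), and Sf3a3 had 10.57, 10.26 and 10.86 in Pax6-/- tissue, against 10.00, 9.02 and 10.64 in WT tissue (0.68 ± 0.46). In both, WT replicate 3 was again beside the mutant arrays. The other kept probe of Sf3a3 had a change of the opposite sign (-0.21 ± 0.83). Sf3b6, which contacts the branch point adenosine, differed by 0.33 ± 0.33 and Sf3b5 by 0.23 ± 0.23. Sf3a1 and Sf3b3 had negative changes, -0.53 ± 0.30 and -1.04 ± 0.62. Sf3b3 had 8.84, 6.92 and 9.09 in Pax6-/- tissue, against 9.17, 9.75 and 9.06 in WT tissue, and its difference was -0.36 without Pax6-/- replicate 2. The other kept probe of Sf3b3 differed by 0.16 ± 0.68. By array, the median deviation of the Sf3 genes from their mean was 0.19, 0.13 and 0.26 on the Pax6-/- arrays and -0.22, -0.28 and 0.18 on the WT arrays, while that of the Snrp genes was -0.26, 0.08 and -0.09 on the Pax6-/- arrays and 0.31, 0.48 and -0.24 on the WT arrays.

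**Figure D4:**
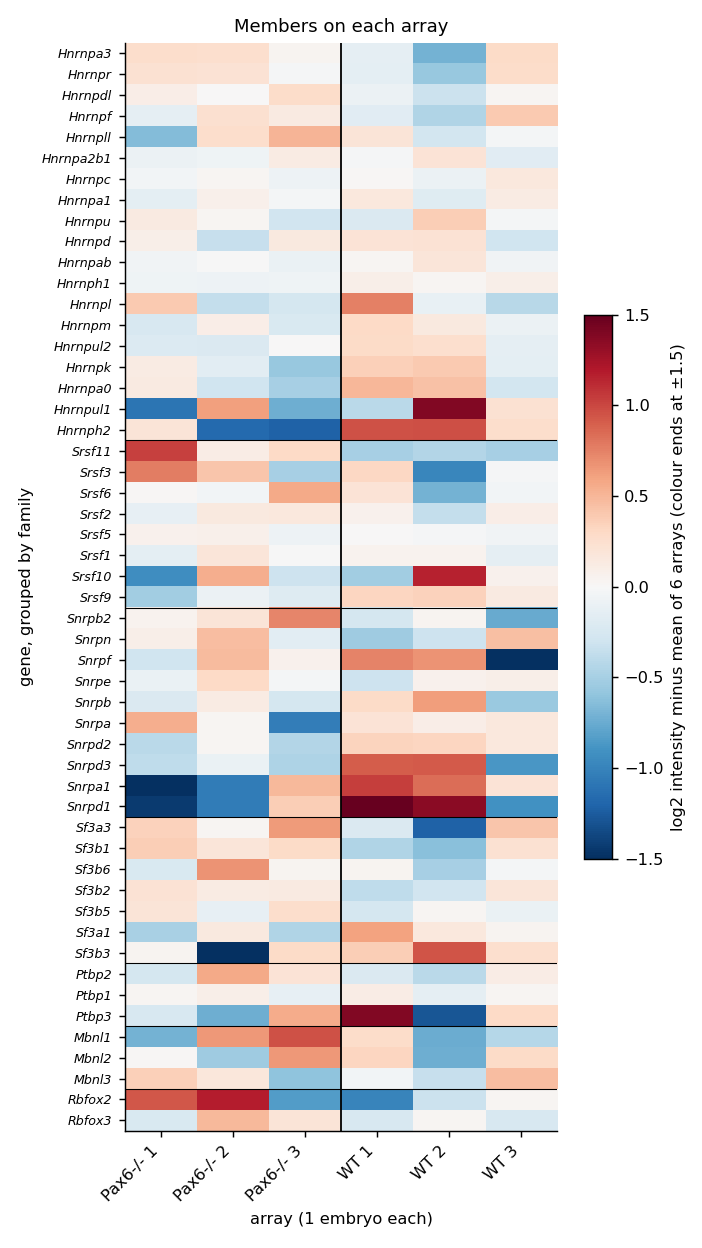
Each of the 52 member genes (rows, by family) on each of the 6 arrays (columns, Pax6-/- then wild type) as log2 intensity minus the gene's mean over the 6 arrays, with red above and blue below it and colours ending at 1.5 in either direction. Snrpd1, Snrpd3 and Snrpf were high on WT replicates 1 and 2 and low on WT replicate 3.

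The tissue-specific regulators showed no separated genotypes on their brightest probes. Ptbp1, which represses neuronal exons in non-neural cells, had 10.87, 10.93 and 10.71 in Pax6-/- tissue, against 10.94, 10.71 and 10.86 in WT tissue, a difference of -0.002 ± 0.21 with a 95% interval from -0.52 to 0.51. Ptbp2, its neuronal paralogue, had 7.89, 8.72 and 8.36 in Pax6-/- tissue, against 7.93, 7.75 and 8.27 in WT tissue (0.34 ± 0.30). Ptbp3 differed by -0.27 ± 0.73 and varied by more than 2.5 log2 units among the WT arrays. Mbnl1 and Mbnl2, muscleblind proteins that switch fetal exons to adult ones, differed by 0.60 ± 0.52 and 0.09 ± 0.45, and Mbnl3 by -0.05 ± 0.36. Rbfox2, the widely expressed Rbfox protein, had 7.28, 7.53 and 5.51 in Pax6-/- tissue, against 5.36, 6.03 and 6.38 in WT tissue, so that its genotypes overlapped through the third mutant array (0.85 ± 0.61). Rbfox3, the neuronal nuclear antigen NeuN, had 5.00, 5.71 and 5.41 in Pax6-/- tissue, against 4.98, 5.25 and 4.99 in WT tissue (0.30 ± 0.27). Rbfox3 was above background on 2 Pax6-/- arrays and 1 WT array. The neuronal marker sums given above were also somewhat higher in Pax6-/- tissue. The mean log2 levels of these markers overlapped, at 5.77 to 5.93 in Pax6-/- tissue and 5.53 to 5.79 in WT tissue. Of the 6 markers, 1 was higher on every Pax6-/- array. Their part in the values of Ptbp2 and Rbfox3 was not tested.

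Single probes of the same gene often disagreed, and the largest genotype differences among the members were of this kind. Such disagreement was about as frequent over the whole array. Probe pairs differed at an unadjusted limma p under 0.05 in 8.33% of member pairs, against 8.06% of all pairs. Over all 112 kept member probes, 8 (7.14%; 5 higher and 3 lower in Pax6-/- tissue) had an unadjusted limma p under 0.05, against 8.97% of all 17751 kept probes. At an adjusted p under 0.05 there were 0 member probes, with a smallest adjusted p of 0.115, against 0.0225% of all probes. Hnrnpa2b1, which binds A and G-rich RNA and also sorts microRNAs, had 6 kept probes. Probe ILMN_2615855 had 6.62, 5.68 and 5.98 in Pax6-/- tissue, against 8.51, 9.14 and 8.29 in WT tissue. The genotypes were separated by more than 1.5 log2 units. The difference was -2.56 ± 0.37 (5.88-fold lower; adjusted p = 0.115). The other 5 probes had changes between -0.57 and 0.37, and the one that shares the annotated transcript record with ILMN_2615855 had 0.37.

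Ptbp1 had 8 kept probes, 7 of them with changes between -0.56 and 0.42. Probe ILMN_2473391, alone on its transcript record, had 8.16, 7.35 and 8.49 in Pax6-/- tissue, against 5.46, 5.62 and 6.17 in WT tissue. Every mutant array was above every WT array by at least 1 log2 unit. The difference was 2.25 ± 0.39 (4.77-fold; limma adjusted p = 0.147). Probe ILMN_2494112 of Ptbp2 had 7.67, 7.89 and 8.22 in Pax6-/- tissue, against 6.67, 4.98 and 6.54 in WT tissue (1.86 ± 0.51; adjusted p = 0.325), and the other 3 Ptbp2 probes had positive changes of 0.34 to 0.41. Probe ILMN_1224653 of Srsf10 had 9.50, 9.79 and 9.46 in Pax6-/- tissue, against 9.11, 8.37 and 8.25 in WT tissue (1.01 ± 0.31; adjusted p = 0.400), where the brightest Srsf10 probe was at -0.46. Unadjusted limma p under 0.05 was also seen for ILMN_1222770 of Rbfox2 (1.12 ± 0.45) and ILMN_1239335 of Hnrnpul1 (-1.08 ± 0.41), and on both the genotypes overlapped. Another Hnrnpul1 probe, ILMN_1248276, was higher on every Pax6-/- array (0.71 ± 0.29), and the remaining kept probes of that gene had changes of -0.80 and -0.56. Probe sequences and their positions in the transcripts were not used here, so which exon or isoform each probe reads was not tested.

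**Figure D5:**
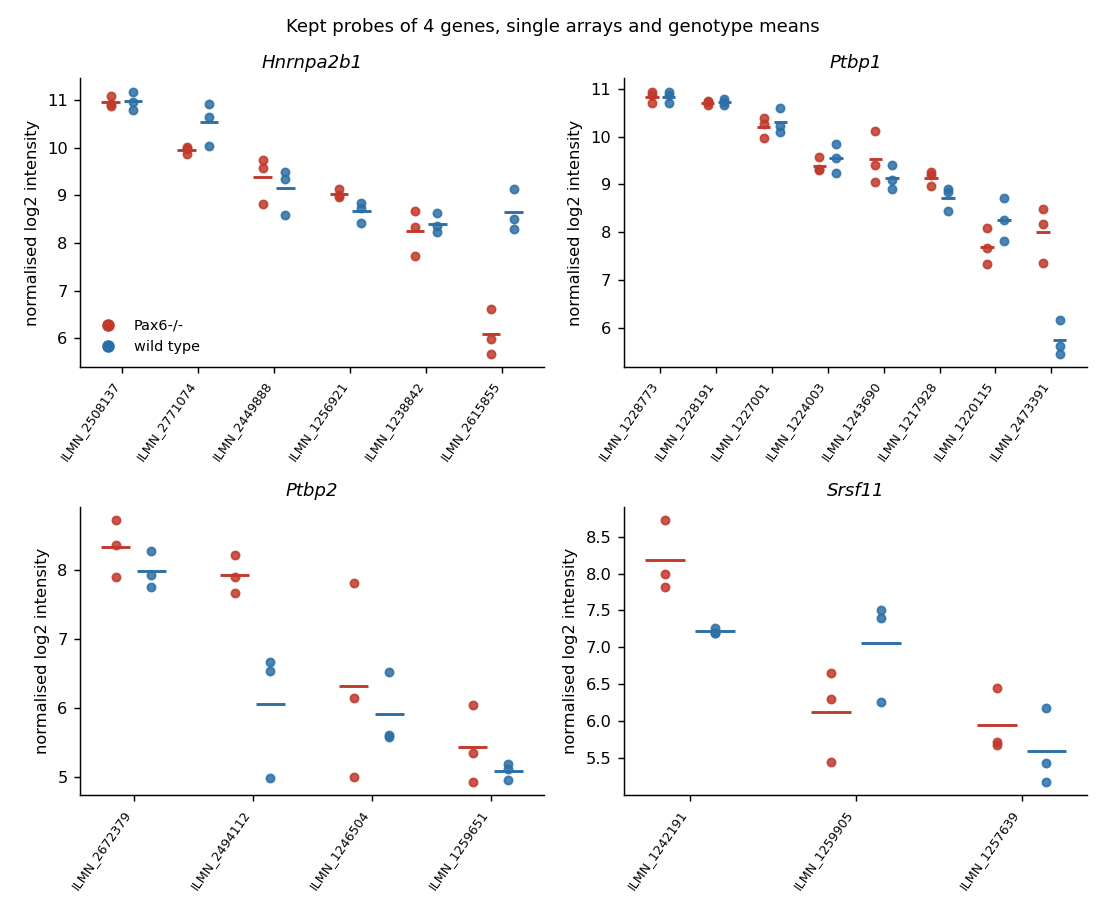
Normalised log2 intensity (vertical axes) of every kept probe of Hnrnpa2b1, Ptbp1, Ptbp2 and Srsf11 on single arrays (points, Pax6-/- left of wild type) with genotype means (bars), probes running from the highest to the lowest mean. ILMN_2615855 of Hnrnpa2b1 and ILMN_2473391 of Ptbp1 show the widest gaps between genotypes in these 2 genes. Of their brighter probes, ILMN_2771074 and ILMN_1256921 of Hnrnpa2b1 and ILMN_1217928 of Ptbp1 were also separated, by -0.57, 0.37 and 0.42, and the rest overlapped.

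The difference between probes was tested itself, as the per-array gap between the brightest probe of a gene and each other kept probe, over 3946 such pairs on the array. Of 60 member pairs, 5 (8.33%) had an unadjusted limma p under 0.05, against 8.06% of all pairs, and 0 passed an adjusted p of 0.05, as did 0% of all pairs. The pair of Hnrnpa2b1 differed by 2.54 ± 0.48 and that of Ptbp1 by -2.26 ± 0.53 (adjusted p of 0.409 for both). The others were pairs of Ptbp2 (-1.52 ± 0.55), Srsf11 (1.88 ± 0.70) and Ptbp3 (-1.79 ± 0.70). Among the 30 member genes with several kept probes, the sign was common to all probes in 11 and mixed in 19 (63.3%, against 50.7% of 2759 such genes on the array). These shares are not like for like, since a mixed sign is easier with more probes. The members had 60 pairs in 30 genes, against 3946 pairs in 2759 genes.

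Splicing genes outside the 8 name stems were read from a list of 88, of which 82 were on the array and 76 were tested. At an unadjusted p under 0.05, 5 were higher and 2 lower in Pax6-/- tissue (9.21%, close to the 8.99% of all genes), and 0 passed an adjusted p of 0.05 with limma. Their median change was -0.03. Tnpo3, the importin that carries SR proteins into the nucleus, had 8.05, 8.42 and 9.23 in Pax6-/- tissue, against 6.22, 7.32 and 6.62 in WT tissue. The genotypes were separated, and the difference was 1.85 ± 0.44 (adjusted p = 0.266). Clk3, a kinase of SR proteins, differed by 1.52 ± 0.39 (adjusted p = 0.299), and Lsm5, of the ring on U6 RNA, by 1.48 ± 0.23 (adjusted p = 0.134). Both were above background on all 3 Pax6-/- arrays but on 1 WT array only, so these sizes depend on how background is treated, and in the authors' deposited values, floored at 1, they were 4.75 for Clk3 and 4.81 for Lsm5. Tra2b, a splicing activator related to SR proteins, had 8.11, 8.52 and 8.16 in Pax6-/- tissue, against 7.24, 5.82 and 7.55 in WT tissue (1.40 ± 0.49; adjusted p = 0.474).

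Gemin2, which helps the SMN complex load Sm rings onto RNA, was above background on 0 of 3 Pax6-/- arrays and on 3 of 3 WT arrays. Its levels were 4.86, 4.84 and 5.16 in Pax6-/- tissue, against 6.18, 8.44 and 6.90 in WT tissue. The difference was -2.22 ± 0.59 (limma adjusted p = 0.310), with a 95% interval from -3.66 to -0.78. With a bound on the mutant signal the estimate was 3.86-fold lower in Pax6-/- tissue. This figure does not include the spread of the WT arrays and is no lower limit on the difference. The bound takes the higher of the probe's own signal and the lowest detected signal on each mutant array. Sart1, of the tri-snRNP, differed by -1.89 ± 0.54 (adjusted p = 0.348). Snrnp70, the U1-specific protein that lies outside the name stems, differed by 0.23 ± 0.20, and U2af1, the small U2AF subunit, by -0.57 ± 0.39. Esrp1, the epithelial splicing regulator, had 8.07, 7.88 and 8.61 in Pax6-/- tissue, against 8.81, 7.26 and 8.59 in WT tissue (-0.03 ± 0.48), so the genotypes overlapped fully. Esrp2 was above background on at most 1 array and was not tested.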

How the data were processed

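Bead arrays of 6 embryos, 3 Pax6-/- and 3 WT, lay at alternating positions on 1 slide. Per the file headers, each probe has a linear intensity averaged over its beads. The bead count (median 37) is deposited with it. The detection p-values are also deposited, per the file headers, as computed by the authors' software. GenomeStudio is the tool named by the submitters' processing notes, without a version. A second deposited intensity table, processed by the authors in a way not given in the sources used here, served as an alternative.

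Probes were named through the platform annotation, and all 137 member probes matched a RefSeq gene table. The files name no genome build, so coordinates are given only for promoter windows of the RefSeq table. Intensities were corrected with limma 3.58.1 in R 4.3.3 (normexp with negative controls inferred from the detection p-values, offset 16), quantile normalised and put on the log2 scale. The offset shrinks changes of dim probes, and quantile normalisation removes a shift of all genes together. Probes detected at p under 0.05 on 3 or more of 6 arrays were kept (17751), and the one with the highest mean stood for its gene. The fits were lmFit and eBayes over all 13805 genes, all kept probes, or all 3946 pairs of probes of a gene, without covariates, with Benjamini-Hochberg adjustment over each whole table and 4 residual degrees of freedom. Raw array medians were 55.2 to 64.3, and 35.0% to 40.2% of probes were above background; the number of arrays limits precision. Intensities of different probes are not comparable as abundances.

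The members and lists were chosen with earlier results of these data known. The genes named were the 20 members with the smallest p, the 2 smallest and 2 largest p of each family not already named, all of Ptbp, Mbnl and Rbfox, textbook members, the 5 genes whose probes differed most, and of the other splicing genes the 5 with the smallest p and Esrp1, Esrp2, U2af1, Tra2b and Snrnp70. Genes outside this rule that the report names (Hnrnph1, Hnrnpa1, Hnrnpab, Hnrnpc, Hnrnpd, Hnrnpf, Hnrnpl, Hnrnpr, Srsf2, Srsf10 and the unmeasured members) were chosen after their values were seen. Alternatives covered the normalisation, offset, filter, probe choice, variance model, array weights, replicate block, the authors' table and each array left out.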

Additional observations from a re-analysis of the deposited data

How the results depend on the processing

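Under 17 alternatives 0 members, 0 member probes, 0 member probe pairs and 0 other splicing genes passed an adjusted limma p of 0.05. Of 989 single gene and probe values, 935 kept their sign and the other 54 changed sign without passing a threshold. Scaling arrays to a common median moved the median of all genes to -0.20 from 0.07, of all members to -0.29, Hnrnp to -0.34, Srsf to -0.13 and Sf3 to -0.039, with 0 members higher and 4 lower (Hnrnph2, Snrpa1, Snrpd2 and Srsf9) and 3 other splicing genes higher and 5 lower at an unadjusted p under 0.05. Averaging the probes of a gene gave medians of 0.11 for all members, 0.32 for Ptbp and 0.069 for Snrp. At an unadjusted p under 0.05, members lower in Pax6-/- tissue numbered 4 with cyclic loess and with no filter, and 3 with an offset of 50, with detection on all 6 arrays and with a trended robust variance, where 0 were higher. Srsf9 and Snrpd2 were among these in each of the 5. Counted in either direction, 9.62% of members were called with cyclic loess, against 9.21% of all genes. The shares in the same order were 8.77% and 5.31% with no filter, and 7.69% and 9.08% with an offset of 50. They were 8.33% and 8.82% with detection on all 6 arrays, and 5.77% and 8.69% with the trended robust variance. With scaling they were 7.69% and 10.5%. Other splicing genes numbered 2 higher and 0 lower with detection on all 6 arrays, 3 higher at a detection p under 0.01, 5 lower with no filter and 4 lower with the trended robust variance. Member probes past that p numbered 5 in the authors' table and 14 with no filter, and probe pairs 2 in the authors' table.

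Leaving out 1 array in turn gave 1 to 2 members higher, 0 to 3 lower, 6 to 27 with separated genotypes, 6 to 14 member probes, 2 to 5 probe pairs, and 3 to 6 other splicing genes higher and 2 to 7 lower. Members past an unadjusted p of 0.05 were 1.92% to 9.62% of members, against 7.98% to 11.2% of all genes. Separated genotypes were seen in 11.5% to 51.9% of members, against 23.0% to 33.7% of all genes. Medians ran from -0.019 to 0.050 for all members, -0.068 to 0.31 for Ptbp and -0.59 to -0.017 for Snrp. The highest count of separated genotypes, 27, came without WT replicate 3, the array singled out by the members' own values. Without Pax6-/- replicate 1, 2 or 3 the count was 15, 13 and 13.

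Same-numbered embryos did not deviate together (correlations 0.0055, 0.0021 and -0.0179 over genes), so the numbers were not taken to pair them. With a replicate block, 1 member was higher and 2 were lower (Hnrnph2 and Hnrnpul1) at an unadjusted p under 0.05, and 0 of all genes passed the adjusted threshold, against 12 without it. Members past the unadjusted threshold with the block were 5.77%, against 8.62% of all genes. Probes near background, such as those of Snrpa1, Rbfox3 and Lsm5, have changes compressed by the offset.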
